A study of Homo sapiens with 2 samples.

Results

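The genes described here are 6 cancer-testis antigen genes on the X chromosome. They are 5 members of the MAGE family (MAGEB2, MAGEA3, MAGEA6, MAGEA12 and MAGEA4) and PAGE5, of the GAGE/PAGE family. They were picked by symbol from 24462 gene symbols, with the difference between the libraries already known, so their ratios are a description and not a test. The RNA came from 2 human cell lines with 1 library each. RT-R-MDA-MB-231 is a radiotherapy-resistant derivative of MDA-MB-231, obtained by giving X-rays in doses of 2 Gy to a final 50 Gy. The parental line MDA-MB-231 is a long-used human line of triple negative breast cancer, the class of tumours without hormone receptors and without amplified HER2. Culture medium was RPMI with 10% fetal bovine serum for each line, and whether the resistant line is 1 clone or a pool is not given in the sources used here. Libraries were made with a Lexogen QuantSeq kit, which reads mainly the 3' ends of polyadenylated transcripts.

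MAGE genes of type I, to which the 5 MAGE genes here belong, are normally transcribed in germ cells of the testis and in placenta, and are kept silent in most other tissues by DNA methylation of their promoters. Tumours often transcribe them again, and peptides of their products shown on MHC class I make them targets of cancer vaccines and T cell therapy. MAGE proteins share a domain that binds RING-type ubiquitin ligases, and the GAGE and PAGE proteins are small, acidic and largely disordered.

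The sequences before the transcription starts are shown first. MAGEA3 and MAGEA6 are identical there. Separately, their 3' transcript ends are so alike that their counts cannot be treated as independent. The sequences shown are RefSeq windows of the GRCh38.p14 build, a later build than the hg19 that the submitters' processing notes name. They cover the 250 bases before an annotated start. Capitals mark GGATGTGA and TGACTTGCGC, searched on both strands. These words do not overlap each other and were chosen after the windows had been read. MAGEB2 is at chrX:30215313-30215562 on the plus strand, MAGEA3 at chrX:152698544-152698793 on the plus strand, MAGEA6 at chrX:152769690-152769939 on the minus strand, and PAGE5 at chrX:55220096-55220345 on the plus strand. MAGEA3 and MAGEA6 have the same 250 bases, printed once.
MAGEB2: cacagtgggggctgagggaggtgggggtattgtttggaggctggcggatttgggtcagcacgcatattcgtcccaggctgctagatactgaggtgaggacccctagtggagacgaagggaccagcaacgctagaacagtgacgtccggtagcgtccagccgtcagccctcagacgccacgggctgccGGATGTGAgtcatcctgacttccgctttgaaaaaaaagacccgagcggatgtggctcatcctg
MAGEA3 and MAGEA6: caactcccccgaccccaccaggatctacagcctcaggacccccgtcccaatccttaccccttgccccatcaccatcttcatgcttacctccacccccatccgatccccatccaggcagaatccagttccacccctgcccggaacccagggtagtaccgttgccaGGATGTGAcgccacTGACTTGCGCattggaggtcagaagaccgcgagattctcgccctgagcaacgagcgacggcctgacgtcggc
PAGE5: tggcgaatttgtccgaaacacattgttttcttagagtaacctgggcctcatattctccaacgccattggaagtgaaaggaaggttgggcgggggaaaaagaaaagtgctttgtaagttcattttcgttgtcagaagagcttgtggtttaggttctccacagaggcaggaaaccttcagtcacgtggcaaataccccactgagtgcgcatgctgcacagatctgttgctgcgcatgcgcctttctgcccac

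The window of MAGEB2 and that of MAGEA3 and MAGEA6 each held 15 CG dinucleotides, the bases at which promoter methylation occurs, and that of PAGE5 held 9. The windows of the 2 annotated starts of MAGEA12 held 5 and 13, and those of the 5 starts of MAGEA4 held 6, 7, 11, 12 and 14. The median over 35116 RefSeq windows of the same length was 11. GGATGTGA lay in 339 of these windows (0.965%) and TGACTTGCGC in 15 (0.0427%), the windows of the genes described here included. By gene symbol, that is 318 and 12 of 27305. Among the X-linked cancer-testis genes listed below, 80 had a window, with GGATGTGA in 14 of these genes and TGACTTGCGC in 8. Both words were cut from the MAGEA3 window, so finding them in related MAGE-A genes is not a test. The CSAG1 window overlaps that of MAGEA12 and the CSAG3 window that of MAGEA2, so a site can count for both genes. GGATGTGA is in a window of each of the 5 MAGE genes, where it begins 12 to 117 bases before the start. The following stretches of 30 bases begin with it. In MAGEA12 (chrX:152733745-152733774, plus strand) the stretch differs from that of MAGEA3 at 1 position. MAGEA4 has 5 annotated starts, each with a copy. The copy at its first start (chrX:151912454-151912483, plus strand) differs from MAGEA3 at 4 positions and the copy at its last start (chrX:151918245-151918274, plus strand) at 2. MAGEB2 held GGATGTGA, but not TGACTTGCGC. PAGE5 held neither word. At the first starts of MAGEA12 and MAGEA4 the stretch runs past the start, so TGACTTGCGC is not within those windows.
MAGEA3 and MAGEA6: GGATGTGAcgccacTGACTTGCGCattgga
MAGEA12: GGATGTGAcgccacTGACTTGCGCgttgga
MAGEA4, first start: GGATGTGAcatcccTGACTTGCGCattggt
MAGEA4, last start: GGATGTGAtgccacTGACTTGCGCattggg
MAGEB2: GGATGTGAgtcatcctgacttccgctttga

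The RT-R library held 10014804 counts and the parental library 9255008. The cell type label was checked on markers: VIM, CD44, EGFR and AXL summed to 21995 counts in RT-R and 14309 in parental cells, while ESR1, PGR and ERBB2 summed to 175 in RT-R and 230 in parental cells. Of 9 male germ cell markers, 7 had no count in either library, among them DAZL, DDX4, PRM1 and TNP1, and their sums were 105 in RT-R and 90 in parental cells, from SYCP3 (91 in RT-R, 81 in parental) and ACRV1 (14 in RT-R, 9 in parental). Leukocyte markers summed to 39 in RT-R and 14 in parental cells, fibroblast markers to 80 in RT-R and 59 in parental cells, and endothelial markers to 52 in RT-R and 224 in parental cells, almost all from PECAM1. In such bulk RNA, fewer cells of a kind and less RNA per cell cannot be told apart. Without replicate libraries, no p-value is given for any difference below. The intervals are exact 95% intervals for counting error only, and reads without molecular identifiers are not independent molecules. Ratios are RT-R over parental after scaling by the trimmed mean of M-values (TMM). Genes with 20 or more counts in either library are termed measured, and a measured gene was called when its ratio was at least 2-fold with an interval on 1 side of equality.

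MAGEB2, MAGEA3, MAGEA6 and MAGEA12 had more counts in the resistant cells, MAGEA4 had none in either line, and PAGE5 had counts only in the parental cells. MAGEB2, whose protein is known to lower translation of the stress granule protein G3BP1, had 405 counts in RT-R cells and 2 in parental cells. As a share of each library, that is 40.4 CPM (36.6 to 44.6) in RT-R and 0.216 CPM (0.0262 to 0.781) in parental cells, where CPM is the count per 1000000 counts of the library, and a ratio of 182 (49.9 to 1504). It ranked 7 from the top among 12644 measured genes ordered by log2 ratio. MAGEA3, which joins the ubiquitin ligase TRIM28 and directs it to the energy sensor AMPK, had 222 counts in RT-R cells and 9 in parental cells, 22.1-fold higher (11.4 to 49.0). MAGEA6, its near-copy with the same known partner, had 182 counts in RT-R cells and 11 in parental cells, 14.8-fold higher (8.10 to 30.2).

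The other 3 genes were at or near 0 in at least 1 line. MAGEA12, another MAGE-A antigen, had 15 counts in RT-R cells and 0 in parental cells. Taking 3 counts as the upper limit for its parental level, it was at least 4.48-fold higher in RT-R, but it lay under the 20-count minimum. Here and below, such "at least" values set a count of 0 at 3 and take the count in the other library as exact. They leave out the counting error of that count, so they are not interval limits. MAGEA4, which binds the DNA damage ligase RAD18 and is a target of engineered T cells, had 0 counts in both libraries, where the 3-count limit is 0.2996 CPM in RT-R and 0.324 CPM in parental cells and the exact two-sided intervals reach 0.368 CPM in RT-R and 0.399 CPM in parental cells. No ratio is given for it. PAGE5 had 0 counts in RT-R cells and 48 in parental cells, or 5.19 CPM (3.82 to 6.88), and was at least 17.8-fold lower in RT-R. Its log2 ratio, whose size depends on the pseudocount of 0.5, was the lowest of all measured genes.

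**Figure D1:**
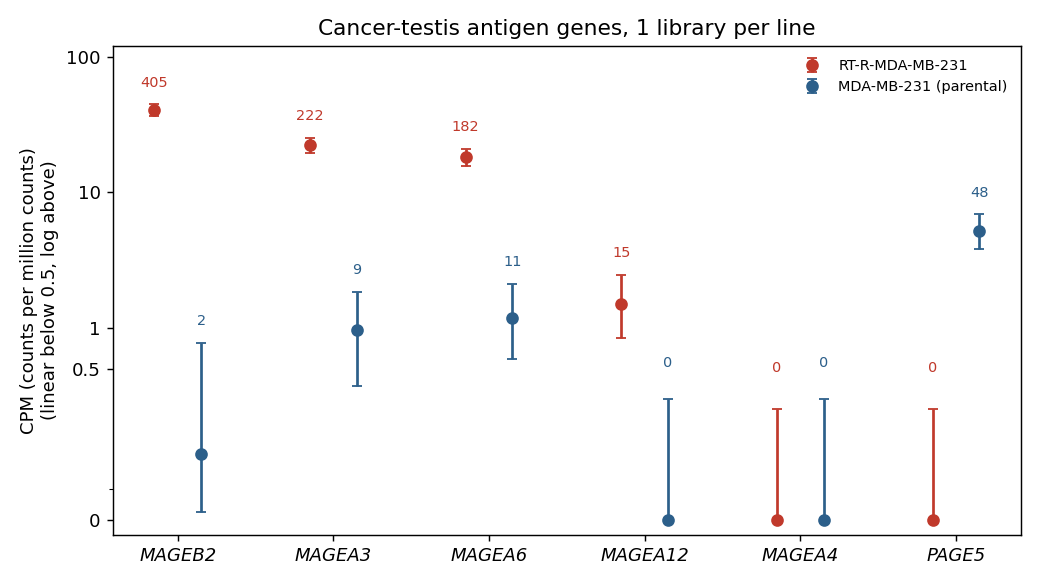
CPM of each gene in the RT-R library (red, left) and the parental library (blue, right), with exact 95% counting intervals. The raw count is printed above each point, and the axis is linear below 0.5 and logarithmic above. MAGEB2, MAGEA3 and MAGEA6 lie at 18.2 to 40.4 in RT-R and at 0.216 to 1.19 in parental cells, MAGEA4 lies at 0 in both, and PAGE5 lies at 0 in RT-R and at 5.19 in parental cells.

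Of the 6 genes, 4 were measured, 3 of them called higher and 1 lower. Over all 12644 measured genes, 6.89% were called higher and 3.97% lower. Because the genes were picked from this contrast, nothing is read from that difference. MAGEA12 and MAGEA4 did not reach 20 counts in either library.

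The counts of MAGEA3 and MAGEA6 are best read together. Their annotated coding sequences, 945 bases each, differ at 18 aligned positions (98.1% identity), and the last 300 bases of their longest GENCODE transcripts differ at 2. Of 251 overlapping words of 50 bases in that end of MAGEA3, 197 (78.5%) also occur in MAGEA6 transcripts. How the authors' counting divided such reads is not given in the sources used here. Summed, the pair had 404 counts in RT-R cells and 20 in parental cells, an 18.1-fold ratio (11.6 to 29.97). MAGEA3 took 55.0% of the pair's counts in RT-R cells (exact interval 49.95 to 59.9) and 45.0% in parental cells (23.1 to 68.5), intervals that overlap widely.

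The ends of the other MAGE genes differ more from those of the pair. MAGEA12, with 92.5% coding identity to MAGEA3, shares 5 of its 251 end words with other genes, and MAGEB2 and MAGEA4 share 0. The coding sequence of MAGEB2 is 63.6% identical to that of MAGEA3 and that of MAGEA4 82.6%. PAGE5 shares 61 of 251 end words (24.3%) with 1 other annotated gene, AL158819.1, which was not analysed here. All MAGE-A rows together had 442 counts in RT-R cells and 20 in parental cells, 19.8-fold higher (12.7 to 32.8), so 404 of the 442 RT-R counts lay on MAGEA3 and MAGEA6.

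The X chromosome as a whole ran the other way. Its 424 measured genes had a median log2 ratio of -0.78, or 1.72-fold lower in RT-R, against a median of -0.01 over all measured genes, and 4.72% of them were called higher and 30.2% lower. MAGEB2 (log2 ratio 7.20), MAGEA3 (4.40) and MAGEA6 (3.83) lay on the other side of equality from that median. When the libraries were scaled so that the median X-linked gene had a ratio of 1, their log2 ratios were 7.90, 5.16 and 4.60, and that of PAGE5 was -6.29. That scaling adds 0.79 to log2 ratios apart from the effect of the pseudocount, so any negative log2 ratio given below that is smaller than this in size would change sign under it, and 4095 genes would be called higher and 75 lower, against 871 and 502 by TMM.

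Chromosome order, which was not used to pick the genes, placed the genes at 4 sites with different surroundings: MAGEB2, MAGEA4, the run from MAGEA3 to MAGEA6, and PAGE5. Order was taken from the RefSeq table of GRCh38.p14, and no coordinates of it are carried over to the counts. Around MAGEB2, of the 5 genes on each side with a row in the files, 0 reached 20 counts. Among them, PPP4R3CP, the farthest row before MAGEB2, had 12 counts in RT-R and 1 in parental cells. MAGEB1, MAGEB3 and MAGEB4, the closest relatives of MAGEB2 and the next 3 genes after it, had no count in either library. The nearest gene on the other side, the synaptic gene IL1RAPL1, had 6 counts in RT-R and 7 in parental cells.

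MAGEA3, MAGEA12 and MAGEA6 lie within a run of 8 neighbouring rows that all had more counts in RT-R than in parental cells. Besides these 3 genes, the run held CSAG1, MAGEA2B, CSAG4, MAGEA2 and CSAG3, none with a parental count. Such rows could not have fewer counts in RT-R, and MAGEA3 and MAGEA6, which bound the run, were picked from this contrast. Likeness among the CSAG rows or between MAGEA2 and MAGEA2B was not examined, so the 8 rows cannot be treated as independent. CSAG1, a chondrosarcoma-associated antigen gene, had 20 counts in RT-R cells and 0 in parental cells and was at least 5.98-fold higher. CSAG3 had 10 in RT-R and 0 in parental cells, at least 2.99-fold higher, and MAGEA2B had 4 in RT-R and 0 in parental cells. MAGEA2 had 3 in RT-R and CSAG4 had 2 in RT-R, with 0 in parental cells, both at or under the floor, so no ratio is given. CSAG4 overlaps MAGEA12 in the RefSeq table, so without stated use of strand their reads cannot be told apart.

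Directly beyond MAGEA6 this pattern ended. The centrosome gene CETN2 had 169 counts in RT-R cells and 335 in parental cells, 2.21-fold lower (1.83 to 2.68). The sterol synthesis gene NSDHL was 2.00-fold lower (1.78 to 2.26) and ZNF185 was 2.13-fold lower (1.90 to 2.40). Such ratios are not particular to this site: the median measured X-linked gene was 1.72-fold lower, and 30.2% were called lower. MAGEA4 sits apart from the run, 1 row before GABRE, a GABA receptor subunit gene with 170 counts in RT-R and 136 in parental cells, a ratio of 1.12 (0.889 to 1.41). The 4 rows before MAGEA4 had no counts, and VMA21, the fifth, was 1.80-fold lower in RT-R (1.68 to 1.94) without reaching the 2-fold limit.

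Of the 10 rows nearest to PAGE5, 3 were measured, 0 called higher and 1 lower, beside 4.72% higher and 30.2% lower of all measured X-linked genes. That 1 was FAM104B, which had 71 counts in RT-R cells and 261 in parental cells, 4.10-fold lower (3.14 to 5.41). MTRNR2L10, which has close copies elsewhere in the genome, had 96 in RT-R and 115 in parental cells, a ratio of 0.748 (0.565 to 0.990). MAGEH1, a type II MAGE gene, had 84 in RT-R and 113 in parental cells, 1.5003-fold lower (1.12 to 2.01). Its closest PAGE relatives had few counts in either line: PAGE2 had 4 counts in RT-R and 7 in parental cells, PAGE2B had 6 in RT-R and 3 in parental cells, and PAGE3 had 1 in RT-R and 0 in parental cells.

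**Figure D2:**
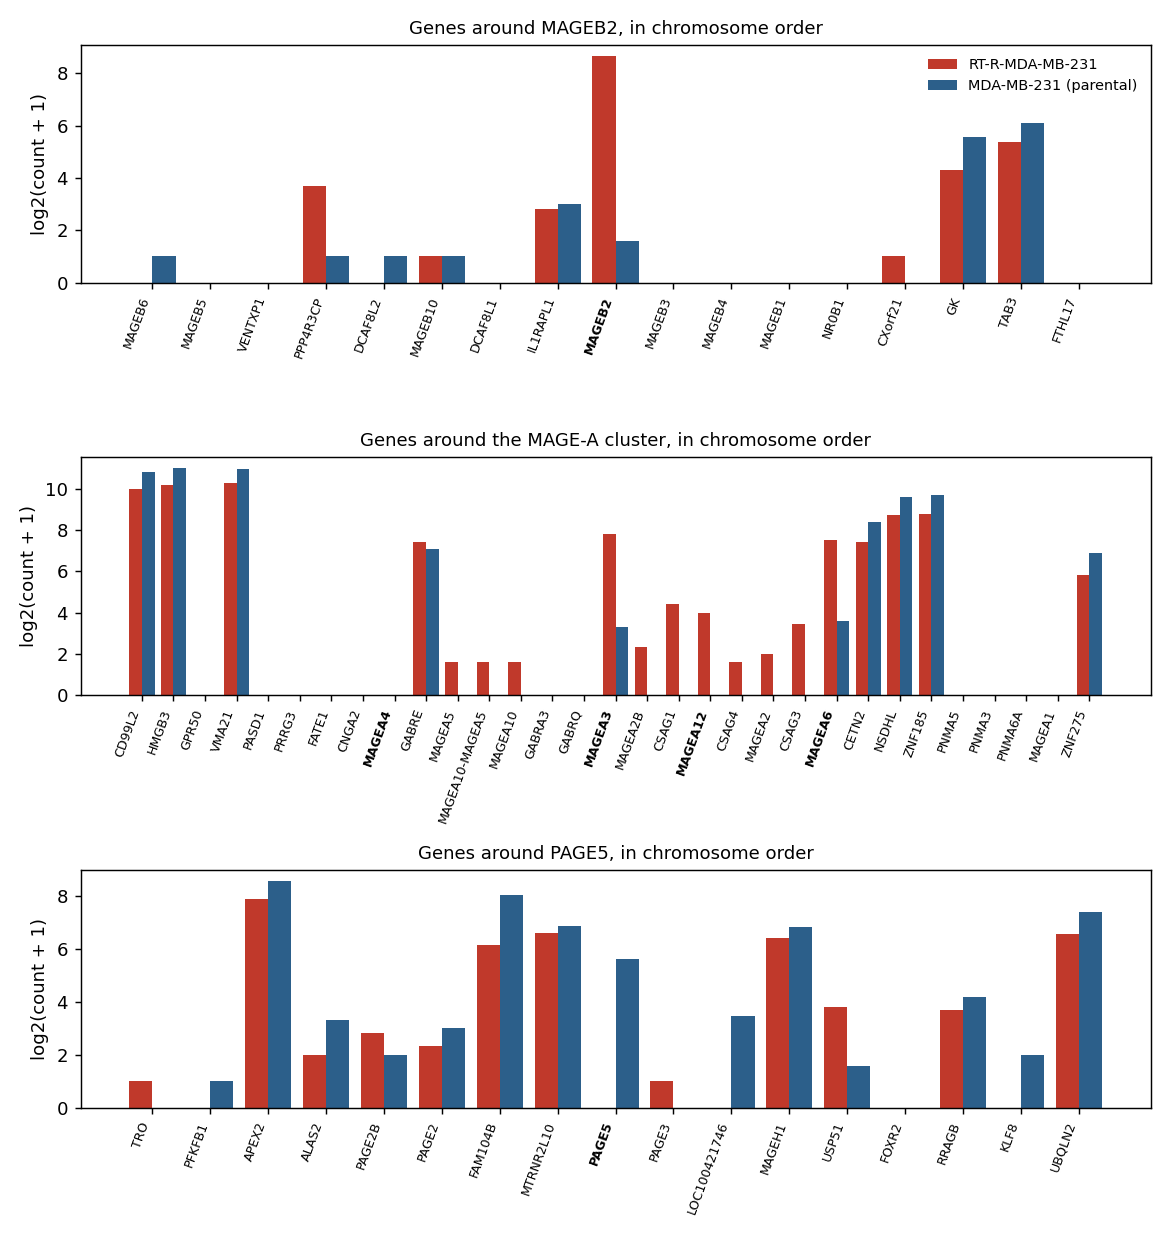
Log2(count + 1) in RT-R (red, left bar) and parental cells (blue, right bar) for genes in chromosome order around MAGEB2, the MAGE-A cluster and PAGE5, with the described genes in bold. The 5 rows on each side of MAGEB2 are under 20 counts, and PAGE5 has counts only in parental cells. The rows from MAGEA3 to MAGEA6 have more counts in RT-R, though most of them are under 20 counts. On the MAGEA6 side they border genes that are lower in RT-R. The median measured X-linked gene is also lower in RT-R.

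Other genes of these families were set beside the 6. The lists were drawn up with earlier results of these data known. Of 13 MAGE-A rows, 8 had a count in RT-R and 2 in parental cells. MAGEA11, a MAGE-A gene outside that run that is known as a coregulator of the androgen receptor, had 12 counts in RT-R and 0 in parental cells, at least 3.59-fold higher, while MAGEA1, MAGEA4, MAGEA8, MAGEA9 and MAGEA9B had 0 in both. Of 13 MAGE-B and MAGE-C rows, 9 had no count in either library, and only MAGEB2 and MAGEC1 were measured. MAGEC1 had 24 counts in RT-R cells and 1 in parental cells, and a ratio of 21.5 (3.51 to 885).

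Of 33 GAGE, PAGE and XAGE rows, 3 were measured, 0 were called higher and 2 lower, PAGE5 and XAGE1E. Over all measured X-linked genes, 4.72% were called higher and 30.2% lower. XAGE1E had 510 counts in RT-R cells and 940 in parental cells, 2.06-fold lower (1.84 to 2.29), and its near-copy XAGE1B had 1656 in RT-R and 2950 in parental cells, 1.99-fold lower (1.87 to 2.11), just short of the limit. Reads may be divided arbitrarily between the XAGE1 copies, whose sum was 2.00-fold lower (1.90 to 2.11). All GAGE rows together had 17 counts in RT-R and 16 in parental cells.

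Among 64 other X-linked cancer-testis rows, 8 were measured, 6 called higher and 0 lower, beside 4.72% higher and 30.2% lower of all measured X-linked genes. The 6 were CSAG1, SSX1, a transcriptional repressor gene (28 counts in RT-R and 5 in parental cells, 5.02-fold, 1.91 to 16.7), and the sperm nucleus genes SPANXA1 (890 counts in RT-R and 295 in parental cells), SPANXA2 (425 counts in RT-R and 144 in parental cells), SPANXC (193 counts in RT-R and 55 in parental cells) and SPANXD (162 counts in RT-R and 50 in parental cells). The ratios of these SPANX genes ran from 2.65 to 3.15. They are close copies among which reads may be divided, so their calls cannot be treated as independent. The most abundant copy, SPANXB1, had 17946 counts in RT-R and 12053 in parental cells, a ratio of 1.34 (1.30 to 1.37), and was not called. All SPANX rows together, most of them SPANXB1 counts, had 19616 in RT-R and 12597 in parental cells. Their ratio was 1.40 (1.37 to 1.43), also not called. CT83 had 53 counts in RT-R and 95 in parental cells and a log2 ratio of -0.99, not called. Without the 6 genes, the X-linked cancer-testis lists held 117 rows, of which 11 were measured, 7 called higher and 1 lower, with a median log2 ratio of 1.43. Each SPANX copy counts there as a row of its own. A row with few parental counts is measured only through a high RT-R count, so these figures describe the rows that passed and not the family.

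Type II MAGE genes, which are transcribed in many tissues, had 8 measured of 11 rows, 2 called higher and 1 lower, with a median log2 ratio of -0.33. The shares called were 6.89% higher and 3.97% lower over all measured genes, and 4.72% higher and 30.2% lower over X-linked ones. MAGED1 (434 counts in RT-R and 554 in parental cells) and MAGED2 (483 counts in RT-R and 698 in parental cells) had log2 ratios of -0.51 and -0.69, near the X median, and MAGEE1 was 3.04-fold lower (1.48 to 6.73). The list's median also includes MAGEF1 and NDNL2, which are not X-linked and had log2 ratios of -0.14 and 0.20. The 2 called higher are the near-copies MAGED4 and MAGED4B, with 270 counts together in RT-R cells and 78 in parental cells, 3.10-fold higher (2.40 to 4.05). Off the X chromosome, 0 of 3 measured cancer-testis genes of 20 were called: SYCP3 (91 counts in RT-R and 81 in parental cells), MAEL (42 counts in RT-R and 41 in parental cells) and ODF2 (294 counts in RT-R and 294 in parental cells). At the shares over all measured genes, few calls would be met among 3 genes.

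**Figure D3:**
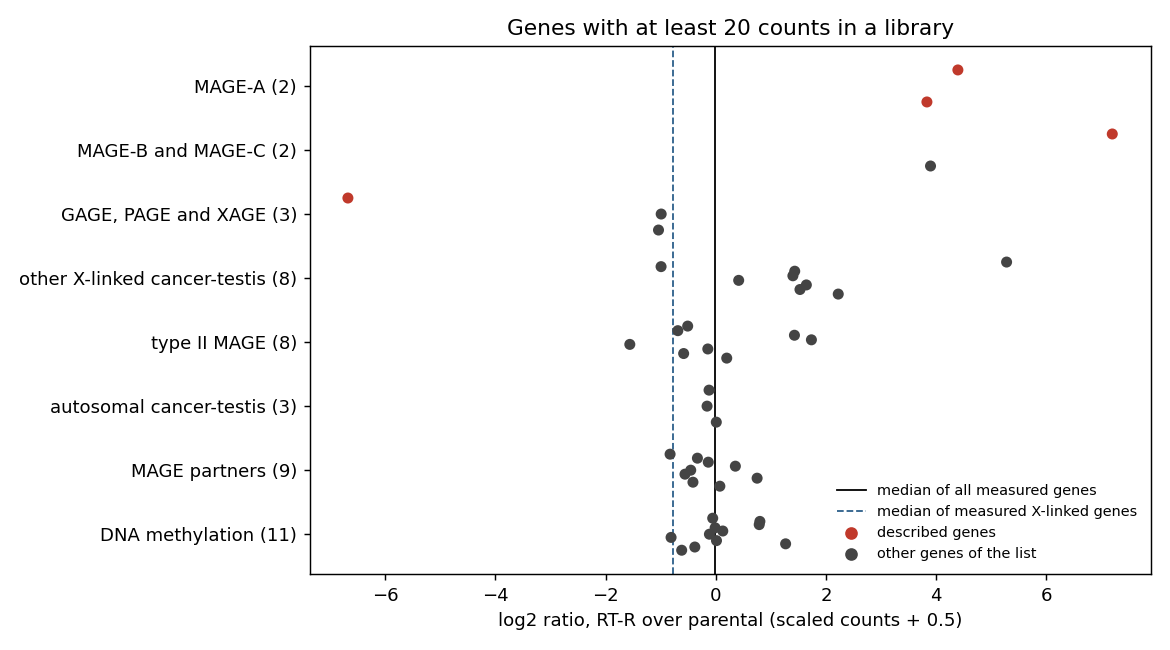
Log2 ratios (RT-R over parental, scaled counts plus 0.5) of the measured genes of each list, with their number in brackets. Red points are the genes described here, dark points the other list members, the solid line the median of all measured genes (-0.01) and the dashed line that of measured X-linked genes (-0.78). MAGEA3, MAGEA6, MAGEB2, MAGEC1 and CSAG1 lie above 3.8, and PAGE5 lies at -6.68. CSAG1 had 0 counts in parental cells and PAGE5 had 0 in RT-R, so how far out they lie depends on the pseudocount. At a pseudocount of 5, the log2 ratio of PAGE5 was -3.48.

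Genes whose products act with MAGE proteins were also counted. Of 10 listed partners and substrates, 9 were measured and 0 were called, with a median log2 ratio of -0.33; over all measured genes, 6.89% were called higher and 3.97% lower, so few calls would be met among 9 genes at that rate. TRIM28, the ligase of MAGEA3 and MAGEA6, had 432 counts in RT-R and 516 in parental cells (log2 ratio -0.41), and PRKAA1, the AMPK subunit they target, 410 in RT-R and 287 in parental cells (0.36). RAD18, the partner of MAGEA4, had 179 in RT-R and 220 in parental cells (-0.45), and G3BP1, linked to MAGEB2, 2668 in RT-R and 3012 in parental cells (-0.33). TRIM27, a ligase bound by other MAGE proteins, had the highest ratio at 1.68 (1.46 to 1.94).

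Among genes that write, read or erase DNA methylation, 11 of 13 were measured, 1 was called higher and 0 lower, with a median log2 ratio of -0.01. That count is near the share over all measured genes, 6.89% higher and 3.97% lower, and their median was also -0.01. DNMT1, the maintenance methyltransferase, had 3684 counts in RT-R and 3431 in parental cells (log2 ratio -0.05), and its cofactor gene UHRF1 had 486 in RT-R and 567 in parental cells (-0.38). The methyltransferase genes DNMT3A (119 counts in RT-R and 61 in parental cells) and DNMT3B (332 counts in RT-R and 172 in parental cells) had ratios of 1.75 (1.27 to 2.42) and 1.73 (1.44 to 2.09), under the limit. TET3, an enzyme that oxidises methylated cytosine, was called at 2.43-fold higher (1.70 to 3.51). DNA methylation itself was not measured here.

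The genes most like each antigen were found by distance between log2 scaled counts over the 2 libraries. The nearest to MAGEB2 were THBS2 (187 counts in RT-R and 2 in parental cells) and PHGDH (228 in RT-R and 1 in parental cells). Those nearest to MAGEA3 were IGSF3 (220 in RT-R and 7 in parental cells) and MAGEA6, and those nearest to MAGEA6 were TC2N (154 in RT-R and 12 in parental cells) and EBI3 (168 in RT-R and 9 in parental cells). The nearest to PAGE5 were RGN (0 in RT-R and 44 in parental cells), also on the X chromosome, and TFF1 (0 in RT-R and 34 in parental cells). With 2 libraries, such likeness means only a similar pair of counts.

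**Figure D4:**
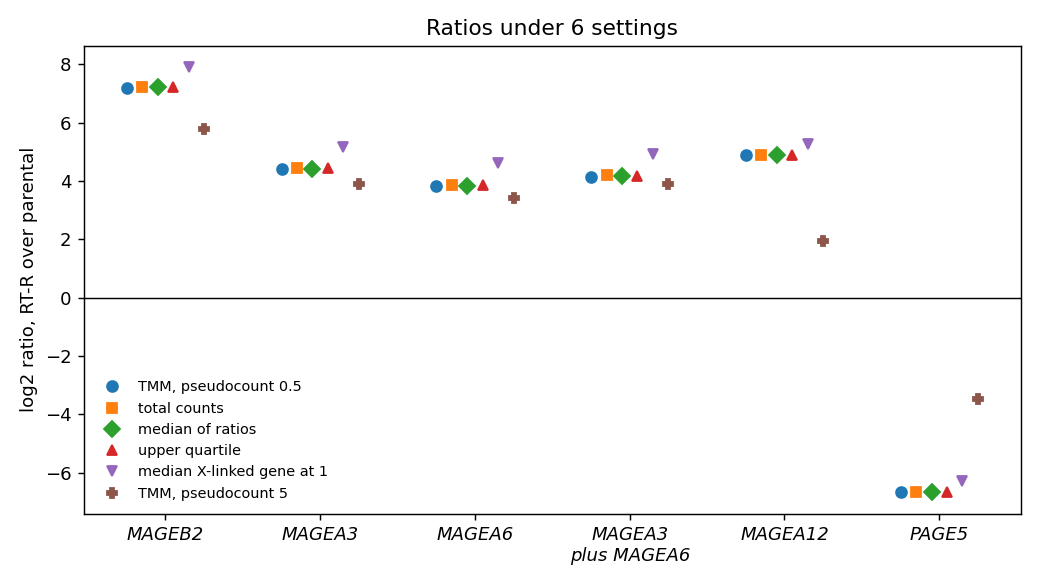
Log2 ratio of RT-R over parental for each gene and for the sum of MAGEA3 and MAGEA6 under 6 settings (5 scalings at a pseudocount of 0.5 and TMM scaling at a pseudocount of 5). The sign was the same in all 6 for each gene with a count, and the larger pseudocount gave MAGEA12 a log2 ratio of 1.94 in place of 4.88 at 0.5.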

How the data were processed

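Per the labels' protocols, a 3' tag kit was used to make 1 library from each line. The deposited values are the authors' unnormalized counts, in whole numbers for each symbol. The tools that the submitters' processing notes name are Bowtie2, bedtools and bcl2fastq 2.20.0.422, with the hg19 build. Gene annotation, strand use and the treatment of multiply matching reads are not known from these sources. Repeated symbols were summed, from 25737 rows to 24462 symbols. Libraries were scaled by TMM in edgeR 4.0.16 (R 4.3.3), with RT-R 1.12 times the parental size. Log2 ratios used scaled counts plus 0.5, and intervals are exact (Clopper-Pearson, scipy 1.17.1, Python 3.11.15). Calls needed 20 counts in either library, a 2-fold ratio after the pseudocount, and an interval on 1 side of 1. Genes were placed on GRCh38.p14 RefSeq by symbol or unambiguous synonym (98.6% of measured genes). All 6 genes matched RefSeq promoter windows, and 3' ends came from GENCODE 29 transcripts. Coding sequences were the longest open frames and had the annotated lengths; they were aligned globally with Biopython 1.88. Named were all 6 genes, their measured neighbours, called members of each list, partners and methylation genes, and the 2 genes nearest to each in both libraries; names outside this rule were chosen after their values were seen. The genes and lists were chosen with earlier results of these data known. Alternatives were other scalings (DESeq2 1.42.0 among them), pseudocounts, count minimums and call rules.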

Additional observations from a re-analysis of the deposited data

How the results depend on the processing

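No paired analysis was possible because each line has 1 library, and no library could be left out. The log2 ratios of MAGEB2, MAGEA3, MAGEA6, MAGEA12 and PAGE5 and of the MAGEA3 and MAGEA6 sum kept their sign under the 4 other scalings and a pseudocount of 5. Under those scalings, as under TMM, 3 of the 6 genes were called higher and 1 lower. Of the 6 genes, the number called lower was 0 with a minimum of 100 counts, which PAGE5 does not reach. Over all genes, scaling to the median X-linked gene, which shifts log2 ratios by 0.79 before the pseudocount is added, gave 4095 higher and 75 lower. A minimum of 100 counts gave 356 higher and 265 lower, a 1.5-fold limit 1734 higher and 1501 lower, and a 4-fold limit 292 higher and 67 lower. The X-linked cancer-testis genes called higher numbered 6 at 4-fold, against 10. Those called lower numbered 1 under total counts, the upper quartile, the X-linked scaling, a minimum of 100 counts and a 4-fold limit, and 4 at 1.5-fold, against 2. XAGE1E lies close to the 2-fold limit. Their median log2 ratio, 1.53, was 1.57 with total counts, 1.57 with the upper quartile, 1.54 with median-of-ratios scaling, 2.31 by the X-linked scaling, 1.45 with a pseudocount of 5, 1.48 with a minimum of 100 counts and 1.08 with a minimum of 1 count. The parental counts of 0 to 11 limit the precision of the ratios of MAGEB2, MAGEA3, MAGEA6 and MAGEA12.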

Other observations

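Genes nearly absent from either line were also counted over the whole table. In all, 9 genes had at least 100 counts in RT-R and at most 3 in parental cells, and MAGEB2 was the 1 X-linked gene among them. In the opposite direction, with at least 100 counts in parental and at most 3 in RT-R cells, there were 0 genes. Near MAGEB2 and PAGE5, 2 rows under the 20-count minimum had a ratio with an interval wholly above 1. PPP4R3CP, the fifth row before MAGEB2, had 12 counts in RT-R and 1 in parental cells, a ratio of 10.8 (1.59 to 460). USP51, the fourth row after PAGE5, had 13 counts in RT-R and 2 in parental cells, a ratio of 5.83 (1.32 to 53.2). CXorf21, PAGE2B and PAGE3 also had more counts in RT-R, without such an interval. LOC100421746, the second row after PAGE5, had 0 counts in RT-R and 10 in parental cells, at least 3.72-fold lower. These rows were chosen after their values were seen.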
